A study of Homo sapiens with 6 samples.

Results

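The prolyl peptidases examined here are FAP and 7 relatives: DPP4, DPP8, DPP9, PREP and PREPL of serine peptidase family S9, and DPP7 and PRCP of family S28. They were taken by symbol from a count table of 28395 genes, in which all 8 have a row. The libraries come from TC28a2, an immortalised human chondrocyte line. In the FAP vector group (3 libraries) the cells carried a vector for overexpression of FAP, and in the control vector group (3 libraries) a vector without it. Total RNA was taken with TRIzol 48 hours after transfection in both groups and sequenced as DRUG-seq libraries, an inexpensive RNA-seq format that pools many samples. All libraries come from a single line, the labels name neither the promoter that drives FAP nor the share of cells that took up the vector, and they do not say whether replicates were separate cultures. The p-values therefore rest on the variation among these libraries, and part or all of it may be technical.

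Most peptidases stall at proline, whose side chain closes a ring with the peptide backbone, and the enzymes of this group are among the few that cut next to it. Those of family S9 fold into a propeller domain that guards the entrance to a serine protease domain, and the S28 enzymes are lysosomal relatives of similar catalytic chemistry. FAP (fibroblast activation protein) and DPP4 sit at the cell surface, DPP8, DPP9 and PREP work in the cytosol, and DPP7 and PRCP in vesicles of the lysosomal system. FAP is known from activated fibroblasts of wounds, tumours and inflamed joints, where it trims gelatin and small peptides.

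Levels are given as CPM, gene counts scaled to a common library size after TMM, a correction for differences in library composition. Library totals ran from 6275038 to 13839743 gene counts in the FAP vector group and from 5736056 to 12446373 in the control vector group. FAP vector replicate 3 stood apart from its group, with a chi-square per degree of freedom over genes of 16.2 and 15.5 against FAP vector replicates 1 and 2, which gave 5.74 between themselves. The control pairs gave 5.21 to 6.78. Of the chondrocyte markers SOX9 was well measured, at 31.3 to 42.5 CPM in FAP vector libraries and 22.6 to 31.9 CPM in control vector libraries, whereas the other 9 of 10 markers, among them ACAN and COL2A1, were too low to be tested. Markers of T lymphocytes and endothelium were low, and of the macrophage markers CD68 was well measured. Summed levels of the T lymphocyte, macrophage and endothelial lists were 3.24 to 5.55, 19.1 to 23.3 and 1.83 to 2.66 CPM in FAP vector libraries. In control vector libraries they were 3.46 to 6.87, 20.3 to 21.4 and 0.912 to 1.09 CPM. CD68 made up most of the macrophage sum, at 14.02 to 16.91 CPM in FAP vector libraries, and the control vector libraries lay inside that range. CD3D made up most of the T lymphocyte sum, at 3.03 to 5.254 CPM in FAP vector libraries and 3.465 to 6.109 CPM in control vector libraries. AIF1 and CDH5 were at 0 throughout. Within the endothelial list PECAM1 moved with the groups, at 1.41 to 1.91 CPM in FAP vector libraries and 0.182 to 0.711 CPM in controls (log2 fold change 1.74, adjusted p = 0.293, edgeR's quasi-likelihood test), and its part in the results was not tested. Of the epithelial list, the keratins KRT8 and KRT18 were abundant, and EPCAM, CDH1 and KRT19 had at most 4 counts in any library. Of 10 activated fibroblast markers 9 were tested and FAP alone was called, with summed levels, FAP included, of 982 to 1259 CPM in FAP vector libraries and 599.5 to 849.9 CPM in control vector libraries. Collagen I was abundant in both groups, with COL1A1 at 580.6 to 732 CPM in FAP vector libraries and 433 to 678 CPM in control vector libraries.

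FAP was the most abundant of the 8 transcripts in FAP vector cells and close to absent in control vector cells. FAP (Entrez 2191; chr2:162170684-162243445, GRCh38.p14) was read 1396, 3182 and 4733 times in FAP vector replicates 1, 2 and 3, and 0, 11 and 5 times in control vector replicates 1, 2 and 3. On the CPM scale these are 222, 224 and 350.2 in FAP vector libraries and 0, 1.2 and 0.395 in control vector libraries. The groups lay far apart, and FAP vector replicate 3 held 1.57 times as much FAP as the lowest FAP vector library. The fitted log2 fold change was 8.80 (SE 0.30, 95% interval 8.18 to 9.42, adjusted p = 4.211e-14, edgeR's quasi-likelihood test over 13373 genes). This SE is the size divided by the root of F, and other fits gave larger ones. The log2 fold change was 8.87 (SE 0.72) with DESeq2 and 9.46 (SE 0.82) with limma-voom. The limma-voom value lies above the 95% interval, so that interval does not cover the choice of fit. Because this gene was delivered by the vector, its change checks the labels, and all 6 libraries matched theirs. Without FAP vector replicate 3 the log2 fold change was 8.54 (SE 0.20), and without control vector replicate 2, which holds 11 of the 16 FAP counts of its group, it was 9.86.

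The small number of FAP reads in control vector libraries varied between libraries, and the source of these reads was not tested. The 3 control vector libraries together held 16 FAP counts, which is 0.172% of the 9311 counts in FAP vector libraries. The exact Poisson 95% interval, which covers counting error only, was 0.599 to 2.15 CPM for control vector replicate 2 and 0.128 to 0.922 CPM for control vector replicate 3. In control vector replicate 1, with a count of 0, the same interval reached 0.673 CPM, and the limit of 3 counts, used elsewhere for a count of 0, was 0.547 CPM. Gene counts do not tell vector transcripts from those of the cells' own gene, and fewer cells carrying the vector cannot be told apart from less FAP RNA per cell. The noncoding gene LOC101929532, which overlaps FAP over 2056 bases, had 0, 5 and 0 counts in FAP vector replicates 1, 2 and 3, and 0, 0 and 1 in control vector replicates 1, 2 and 3.

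By the reads counted for its gene, FAP reached the upper range of the transcriptome without dominating it. It took 0.0222%, 0.0230% and 0.0362% of all gene counts in FAP vector replicates 1, 2 and 3. By count it ranked 766th, 747th and 451st, above 95.4%, 95.8% and 97.5% of the genes detected in each library. Read per kilobase of the gene's longest annotated transcript (2780 bases), FAP was at 80.0, 80.7 and 126 CPM per kilobase in FAP vector libraries, and at 0, 0.432 and 0.142 CPM per kilobase in control vector libraries. The length of the vector's own transcript is not given in the sources used here, so 2780 bases need not apply to it. Reads from any part of that transcript outside the annotated gene would not be counted. Counts in DRUG-seq, which as generally described primes at the poly(A) tail, need not grow with transcript length. Shares were taken of the summed level of FAP and the other 7 genes examined here, not of every prolyl peptidase. Per kilobase, FAP made up 53.3%, 54.5% and 65.9% of this sum in FAP vector replicates 1, 2 and 3. In control vector replicates 1, 2 and 3 FAP made up 0%, 0.638% and 0.203%. On the CPM scale, with no length, its share was lower, at 46.5%, 47.2% and 57.4% in FAP vector replicates 1, 2 and 3, and 0%, 0.477% and 0.145% in control vector replicates 1, 2 and 3. The other 7 genes summed to 70.0, 67.3 and 65.3 CPM per kilobase in FAP vector libraries and 63.3, 67.2 and 69.9 in control vector libraries, ranges that overlap.

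**Figure D1:**
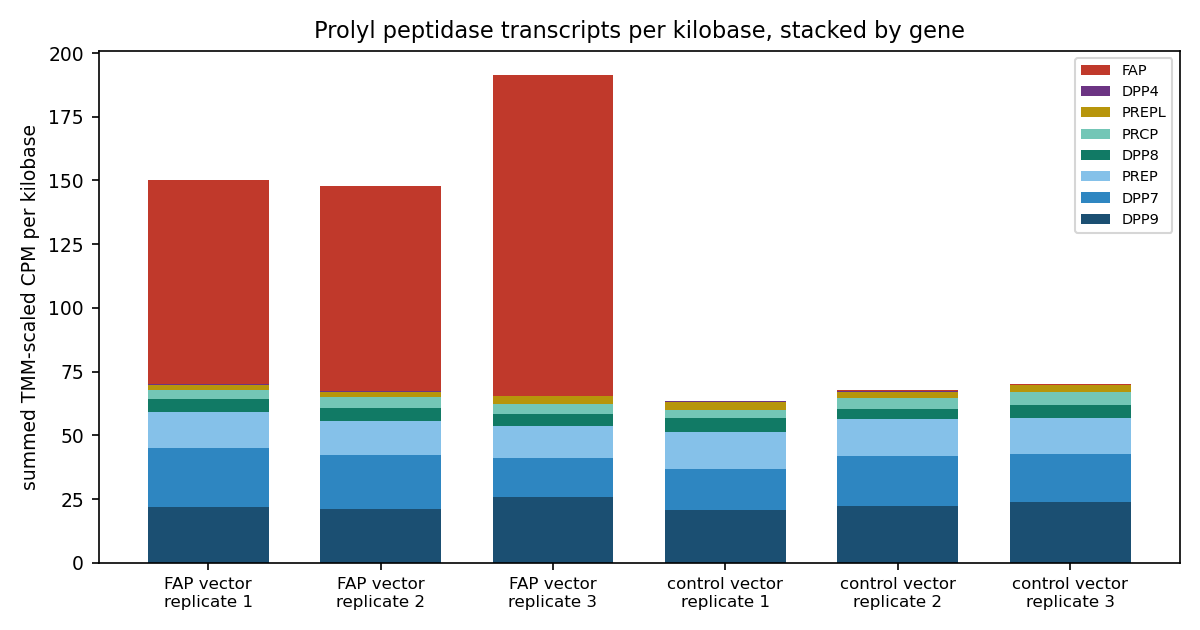
Stacked bars of the TMM-scaled CPM per kilobase of longest transcript for the 8 prolyl peptidase genes, 1 bar for each library, FAP vector libraries on the left and control vector libraries on the right. FAP (red) adds 80.0 to 126 CPM per kilobase in FAP vector libraries to a base of the other 7 genes that lies between 63.3 and 70.0 in all 6 libraries.

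Apart from FAP, DPP9, DPP7 and PREP were the most abundant of these transcripts per kilobase in both groups, and DPP4 was the least abundant. In FAP vector libraries the order per kilobase was FAP (95.5 ± 26.3), DPP9 (23.0 ± 2.45), DPP7 (19.8 ± 3.95), PREP (13.3 ± 0.858), DPP8 (4.96 ± 0.269), PRCP (3.998 ± 0.5004), PREPL (2.21 ± 0.660) and DPP4 (0.244 ± 0.244), as CPM per kilobase, mean ± SD, n = 3. In control vector libraries it was DPP9 (22.3 ± 1.74), DPP7 (18.1 ± 1.82), PREP (14.4 ± 0.340), DPP8 (4.88 ± 0.666), PRCP (4.13 ± 0.795), PREPL (2.86 ± 0.250), FAP (0.191 ± 0.220) and DPP4 (0.158 ± 0.145). Neighbours whose ranges over libraries overlapped were DPP9 and DPP7 in FAP vector libraries, and DPP8 and PRCP, and FAP and DPP4, in control vector libraries. The other neighbours were apart in all 3 libraries of the group. DRUG-seq as generally described primes at the poly(A) tail, where counts need not grow with transcript length. On the CPM scale with no length, 25 of the 28 pairs of genes kept their order by mean over all 6 libraries, and DPP8 came second after DPP9 among the genes other than FAP, at 43.2 CPM in FAP vector libraries and 42.5 CPM in control vector libraries, ahead of PREP and DPP7. In control vector libraries DPP7 was also behind PRCP, at 28.8 against 29.2 CPM, and FAP behind DPP4, at 0.532 against 0.616 CPM. The ranges over control vector libraries overlapped for both of these pairs. They also overlapped for DPP8 (35.8 to 45.8 CPM) and PREP (41.0 to 42.9 CPM).

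DPP9, the most abundant of the cells' own set on both scales, and DPP4, one of the scarcest, are shown by the 250 bases before their outermost RefSeq start (GRCh38.p14, both on the minus strand, printed 5′ to 3′), since both windows are rich in C and G although the genes lie far apart in level. Capitals mark GGGCGG (the GC box) and CCAAT on either strand. The DPP9 window is chr19:4723843-4724092, and its first 23 bases lie in an annotated tRNA gene, TRG-TCC1-1. The DPP4 window is chr2:162074216-162074465.
DPP9: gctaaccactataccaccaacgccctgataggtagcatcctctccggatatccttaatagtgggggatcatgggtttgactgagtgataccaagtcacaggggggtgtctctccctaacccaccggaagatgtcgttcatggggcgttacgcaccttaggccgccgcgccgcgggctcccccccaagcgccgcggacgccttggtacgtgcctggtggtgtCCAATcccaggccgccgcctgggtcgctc
DPP4: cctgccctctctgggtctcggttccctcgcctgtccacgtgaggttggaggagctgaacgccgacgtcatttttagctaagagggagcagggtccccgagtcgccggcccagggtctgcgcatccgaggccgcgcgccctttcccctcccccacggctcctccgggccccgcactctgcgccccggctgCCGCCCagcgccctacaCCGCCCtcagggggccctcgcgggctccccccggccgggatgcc
The DPP9 window is 62.0% G or C with 19 CpG dinucleotides and the DPP4 window 73.6% with 26, against medians of 57.6% and 10 over 27303 promoter windows of the same length. GGGCGG occurs at 2 places in DPP4 and in no place in DPP9, against at least 1 match in 42.2% of all windows. CCAAT occurs once in DPP9 and is not in the DPP4 window, against 33.0% of all windows. TATAAA is in neither and in 11.2% of all windows. RefSeq promoter windows matched 6 of the 8 genes, and those of DPP8, PRCP and PREPL were 58.8%, 58.8% and 71.6% G or C. The window of DPP7, at 80.0%, lies inside the annotated gene. These matches are letters in a window and say nothing of binding.

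Apart from FAP, no prolyl peptidase gene passed the test. Of 13373 genes tested, 13 (0.0972%) were called higher and 17 (0.127%) lower at an adjusted p under 0.05, and all 8 prolyl peptidases were tested. With library totals in place of TMM, 13 genes were called higher and 6 lower. Of the 7 besides FAP, 4 had positive and 3 negative log2 fold changes, with a median of 0.02 against 0.00 over all genes tested. None of the 7 had an unadjusted p under 0.05 by edgeR, against 9.90% of all genes, and none was called by limma-voom or DESeq2, which gave DPP4 no adjusted p. For all but DPP4 the 95% intervals lay within 0.598-fold and 1.33-fold of the control level, which does not show that these genes were equal in both groups.

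**Figure D2:**
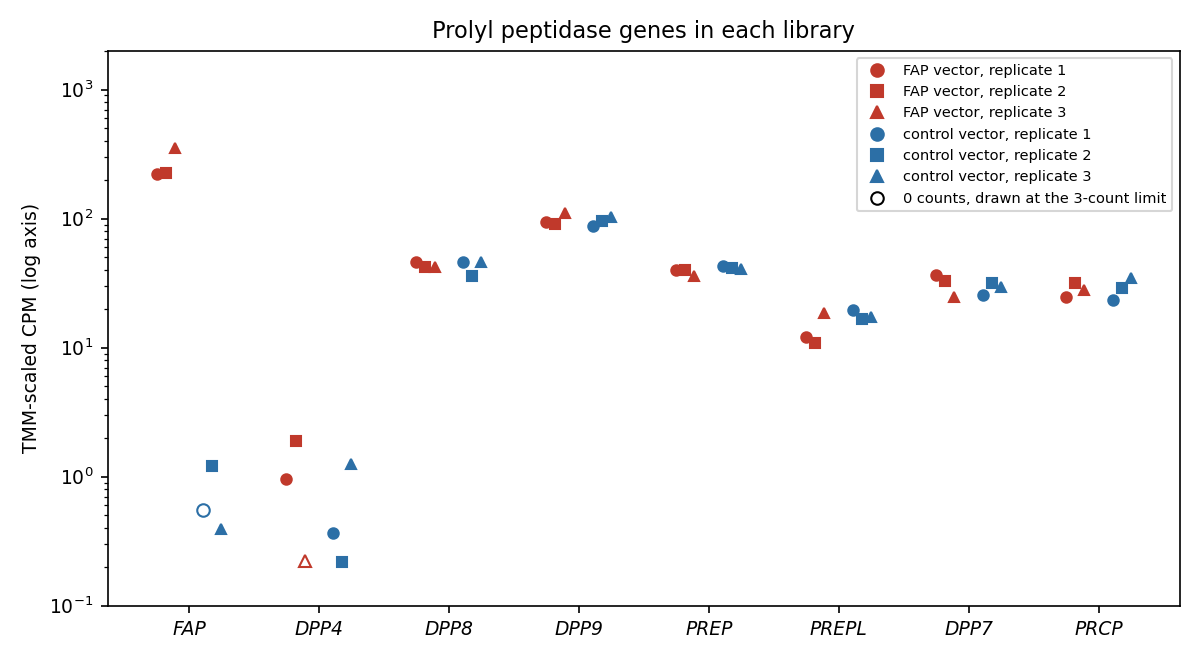
TMM-scaled CPM (log axis) of the 8 genes in each library, FAP vector (red) left of control vector (blue) for each gene, with open symbols for a count of 0 drawn at the level of 3 counts. FAP separates the groups, DPP4 lies below 2 CPM in every library, and the 2 lowest PREPL points are FAP vector replicates 1 and 2.

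DPP4 (Entrez 1803; chr2:161992245-162074215), the cell-surface dipeptidase closest to FAP in sequence and its neighbour on chromosome 2 at a distance of 96468 bases, was barely detected. DPP4 removes N-terminal dipeptides from incretin hormones and chemokines and pairs with FAP on the cell surface. It had 6, 27 and 0 counts in FAP vector replicates 1, 2 and 3, and 2, 2 and 16 in control vector replicates 1, 2 and 3. On the CPM scale these were 0.956, 1.90 and 0 in FAP vector libraries and 0.365, 0.218 and 1.26 in control vector libraries. Both groups thus spanned low and higher libraries and overlapped. The 0 in FAP vector replicate 3 allows up to 0.222 CPM. The log2 fold change was 0.47 with a 95% interval from -1.26 to 2.20 (adjusted p = 0.887), which spans 0.419-fold to 4.60-fold of the control level. Without FAP vector replicate 3 it was 1.12 (adjusted p = 0.496), and limma-voom gave -0.56.

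The cytosolic pair DPP8 and DPP9 differed between the groups by less than the spread between libraries. Both remove dipeptides in the cytosol and are known to hold the inflammasome sensors NLRP1 and CARD8 inactive. DPP8 (Entrez 54878; chr15:65442467-65517689) was at 45.9, 41.9 and 41.8 CPM in FAP vector libraries and 45.8, 35.8 and 45.8 CPM in control vector libraries. FAP vector replicate 1 was level with the highest controls, the other FAP vector libraries lay inside the control range, and the log2 fold change was 0.02 (SE 0.12, 95% interval -0.23 to 0.28, adjusted p = 0.971). DPP9 (Entrez 91039; chr19:4675227-4723842) was at 94.5, 91.4 and 111 CPM in FAP vector libraries and 88.3, 95.6 and 103 CPM in control vector libraries. Its groups overlapped too, with FAP vector replicate 3 the highest library, and the log2 fold change was 0.05 (SE 0.11, 95% interval -0.18 to 0.27, adjusted p = 0.918). Per kilobase the level of DPP8 was 0.186 to 0.240 of that of DPP9 in FAP vector libraries and 0.185 to 0.256 in control vector libraries.

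PREP and PREPL both had negative values, and neither passed the test. PREP (Entrez 5550; chr6:105273218-105403082) cuts short peptides after proline in the cytosol. It was at 40.3, 39.7 and 35.7 CPM in FAP vector libraries and 42.9, 41.3 and 41.0 CPM in control vector libraries. All 3 FAP vector libraries lay below all 3 controls, as 1 of the 7 genes besides FAP, where 16.0% of all tested genes had groups that did not overlap. The difference was small and did not pass the test (log2 fold change -0.11, SE 0.11, 95% interval -0.35 to 0.12, adjusted p = 0.783). PREPL (Entrez 9581; chr2:44317607-44361862), a PREP-like serine hydrolase whose loss causes a congenital myasthenic syndrome, was at 12.1, 10.9 and 18.6 CPM in FAP vector libraries and 19.7, 16.8 and 17.2 CPM in control vector libraries. FAP vector replicates 1 and 2 were below every control, and FAP vector replicate 3 was within the control range. The log2 fold change was -0.35 (SE 0.19, 95% interval -0.74 to 0.04, adjusted p = 0.556). Leaving out FAP vector replicate 3, the library that stood apart, gave -0.64 (SE 0.19, adjusted p = 0.0595), and leaving out FAP vector replicate 2 gave -0.18 (adjusted p = 0.847).

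**Figure D3:**
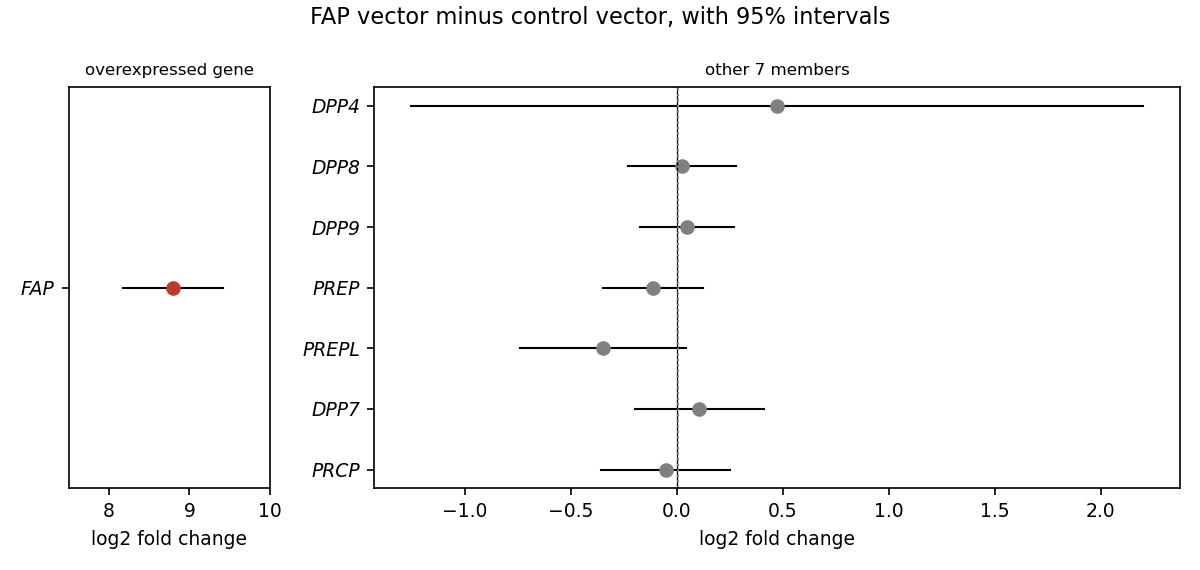
Log2 fold change of FAP vector minus control vector from edgeR's quasi-likelihood fit for each gene, FAP on an axis of its own at the left, with lines for 95% intervals. FAP lies at 8.80, the intervals of the other 7 all include 0 (solid line; the dotted line is the median of all genes), and that of DPP4 is the widest at -1.26 to 2.20.

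The lysosomal enzymes DPP7 and PRCP differed by less than the spread between libraries. DPP7 (Entrez 29952; chr9:137110546-137118306) removes dipeptides at acidic pH. It was at 36.8, 33.1 and 24.6 CPM in FAP vector libraries and 25.7, 31.4 and 29.4 CPM in control vector libraries. FAP vector replicates 1 and 2 were above all controls and FAP vector replicate 3 below them. The log2 fold change was 0.10 (SE 0.15, 95% interval -0.20 to 0.41, adjusted p = 0.853), and 0.26 without FAP vector replicate 3. PRCP (Entrez 5547; chr11:82822936-82901644) takes single residues off the C terminus next to proline, and its substrates include angiotensin II and alpha-melanocyte-stimulating hormone. It was at 24.9, 31.9 and 28.04 CPM in FAP vector libraries and 23.5, 29.2 and 34.8 CPM in control vector libraries. The FAP vector range lay inside the control range, and the log2 fold change was -0.05 (SE 0.15, 95% interval -0.36 to 0.25, adjusted p = 0.937).

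Of 11 annotations that overlap the 8 genes, 3 have a row in the count table, among them LOC101929532 above. SLC3A1 overlaps PREPL over 4831 bases and had 1 count in all, in control vector replicate 2. DPP9-AS1 lies within DPP9 and had no count in any library. The strand setting of the counting is not given in the sources used here, so reads of a gene and of an antisense partner could not be told apart, and the other 8 overlapping annotations, of DPP7, DPP9, PREP and PRCP, were not analysed here.

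Genes these peptidases act with, other members of their families, other peptidases and chromosomal neighbours were followed in 11 lists. The lists hold 86 distinct genes besides the 8, of which 55 were tested. One of the 55 was called, and it was lower, against 0.224% called over all genes. The lists were chosen with earlier results of these data known, so this count is a description and no test of the lists. The median log2 fold change of the 55 was 0.03, and 7 had groups that did not overlap, against 16.0% of all genes. The called gene was PLAUR, the urokinase receptor, which is reported to associate with FAP at the cell surface. It was at 78.7, 81.3 and 80.4 CPM in FAP vector libraries and 116, 110.1 and 121 CPM in control vector libraries, with no overlap. Its log2 fold change was -0.53 (SE 0.10, adjusted p = 0.0264), and the call was lost with library totals in place of TMM (adjusted p = 0.0633) and without FAP vector replicate 2 or any control replicate in turn (largest adjusted p = 0.232). The log2 fold change itself was -0.48 with library totals and -0.56 to -0.50 over all 6 libraries left out in turn. Of the 4 partners listed, DPP4 among them, the other 3 did not pass.

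Of 8 genes for known substrates of FAP, 4 were tested and none passed. The 3 collagen genes had positive values, and NPPB was at -0.04 as log2 fold change (adjusted p = 0.985). COL3A1, a chain of collagen III, was at 16.7, 19.0 and 17.8 CPM in FAP vector libraries and 9.48, 14.3 and 12.6 CPM in control vector libraries. All 3 FAP vector libraries were above the controls (log2 fold change 0.54, SE 0.17, adjusted p = 0.276). COL1A2 showed 0.16 as log2 fold change (adjusted p = 0.731). SERPINF2, FGF21, NPY and TAC1, which encode other substrates, were too low to be tested, TAC1 having no count.

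Of 12 substrates and ligands of DPP4, 5 were tested and none passed. CAV1, caveolin 1, was at 409, 427 and 352 CPM in FAP vector libraries and 292, 301 and 368 CPM in control vector libraries. The groups overlapped through FAP vector replicate 3 and control vector replicate 3 (log2 fold change 0.30, adjusted p = 0.357), and without FAP vector replicate 3 the gene passed at 0.38 (adjusted p = 0.0286). CXCL12, a chemokine that DPP4 inactivates, was at 1.69 to 2.71 CPM in FAP vector libraries and 0.547 to 1.64 CPM in control vector libraries, with no overlap (log2 fold change 0.69, adjusted p = 0.652).

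Of 10 genes tied to DPP8 and DPP9 through the inflammasome or as substrates or partners, 7 were tested and none passed. The sensor CARD8 was at 4.94, 12.3 and 10.3 CPM in FAP vector libraries and 13.1, 12.5 and 12.3 CPM in control vector libraries, FAP vector replicate 1 being the low one (log2 fold change -0.40, adjusted p = 0.584). Without that library the log2 fold change was -0.16, and without FAP vector replicate 2 it was -0.66. SYK, a kinase cleaved by DPP9, was at 1.62 to 2.44 CPM in FAP vector libraries and 3.16 to 4.43 CPM in control vector libraries, with no overlap (log2 fold change -0.87, adjusted p = 0.413). PYCARD, IL1B and IL18 had at most 3 counts in any library.

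Of 7 partners and substrates of PREP, 5 were tested and none passed. PPP2CA, the catalytic subunit of protein phosphatase 2A, was at 126 to 138 CPM in FAP vector libraries and 89.2 to 123 CPM in control vector libraries, with no overlap (log2 fold change 0.33, adjusted p = 0.320). TMSB4X, the source of thymosin beta 4 and of the peptide that PREP releases from it, was at 2830, 2294 and 837 CPM in FAP vector libraries and 2823, 2891 and 2369 CPM in control vector libraries. The low value was that of FAP vector replicate 3 (log2 fold change -0.44, adjusted p = 0.575). The log2 fold change was -0.07 without that library and -0.78 without FAP vector replicate 1, and TMSB4X passed with no low-count filter (-0.44, adjusted p = 0.008105).

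Of 12 kinin, angiotensin and melanocortin genes around PRCP, 3 were tested and none passed, and KLKB1, AGTR1, AGTR2 and POMC had no count in any library. The kinin receptor gene BDKRB2 had a log2 fold change of 0.83 and the angiotensin precursor gene AGT 0.20, at means of 1.36 and 2.07 CPM in FAP vector libraries and 0.763 and 1.90 CPM in control vector libraries (adjusted p = 0.662 and 0.913). The 7 tested genes beside PREPL or in the adaptor complex AP-1, to which PREPL is linked in vesicle traffic, had log2 fold changes from -0.25 to 0.14, with 0.14 for AP1G1 and -0.09 for AP1B1 (adjusted p = 0.717 and 0.805).

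In the list of 7 lysosomal exopeptidases all were tested and none passed. CTSZ, a carboxypeptidase, was at 30.1, 3.95 and 3.70 CPM in FAP vector libraries and 2.74, 3.93 and 5.53 CPM in control vector libraries, so its log2 fold change of 1.43 (adjusted p = 0.403) was set by FAP vector replicate 1 and was -0.14 without it. It passed without FAP vector replicate 3 (1.89, adjusted p = 0.001796) and with no low-count filter. CTSA, a serine carboxypeptidase related in function to PRCP, showed 0.23 as log2 fold change (adjusted p = 0.584). The 7 tested of 8 membrane ectopeptidases had log2 fold changes from -0.09 to 0.40, with 0.40 for the carboxypeptidase M gene and 0.23 for ERAP1 (adjusted p = 0.712 and 0.772). Of 9 other genes of these families or of proline-directed peptidases, 5 were tested. APEH, an S9 enzyme that removes acetylated residues, was at 75.7, 77.0 and 69.2 CPM in FAP vector libraries and 91.0, 82.7 and 82.7 CPM in control vector libraries, with no overlap (log2 fold change -0.21, adjusted p = 0.512). PEPD, the dipeptidase prolidase, showed 0.20 as log2 fold change (adjusted p = 0.665), and DPP10 and XPNPEP2 had no count.

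The chromosome 2 genes beside FAP gave no call among the 3 tested of 5. IFIH1, named after its values were seen, was at 14.1 to 15.9 CPM in FAP vector libraries and 12.8 to 16.9 CPM in control vector libraries (log2 fold change 0.03, adjusted p = 0.977). GCA was at 0.962 to 1.27 CPM in FAP vector libraries and 1.19 to 3.10 CPM in control vector libraries (log2 fold change -0.79, adjusted p = 0.616). GCG had at most 2 counts in a library and SLC4A10 none.

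**Figure D4:**
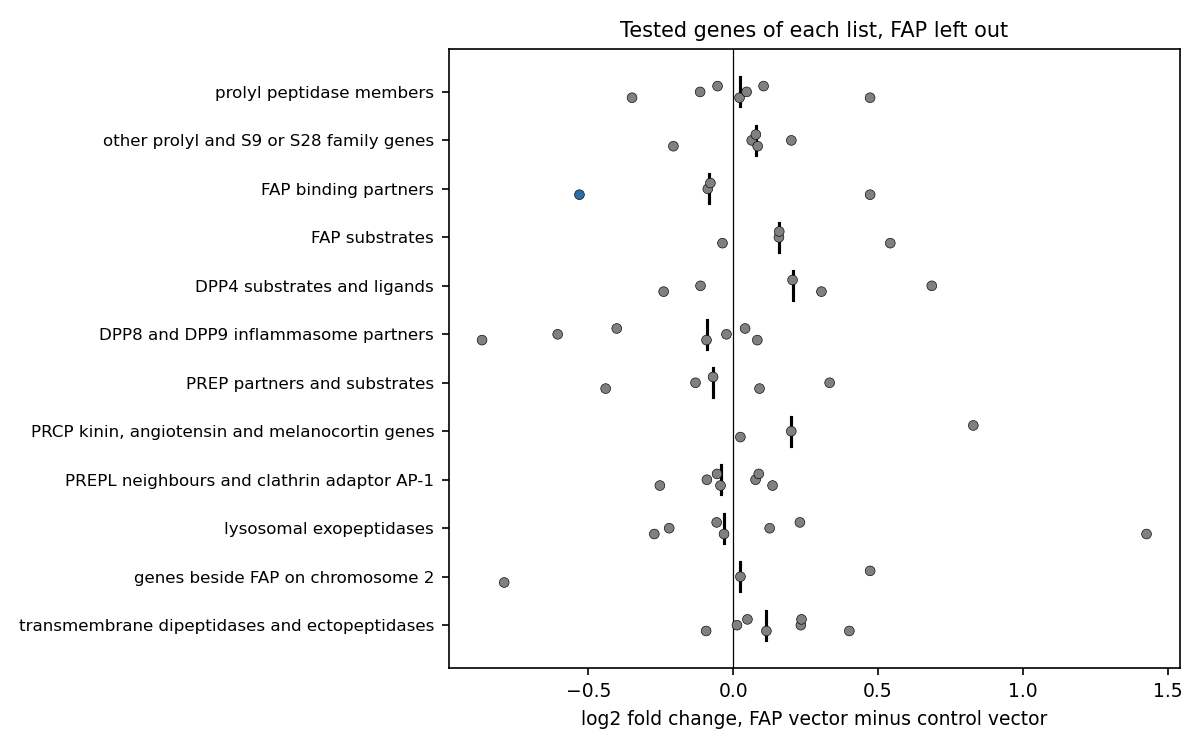
Log2 fold change of FAP vector minus control vector for each tested gene of the 12 lists, the prolyl peptidases themselves first, FAP left out. Each list has 1 point for each of its genes, so DPP4 is drawn again in every list that holds it, and a short black line at its median. The blue point is PLAUR at -0.53, the gene called lower, and the grey points did not pass the test, CTSZ at 1.43 being the farthest to the right.

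By shape over the 6 libraries (log2 of CPM plus 1, centred and scaled to unit SD), the genes nearest to FAP among 8517 with a mean of at least 10 CPM were PJA2, SYNJ2, SQLE, FBXO5 and HAUS3. Their root-mean-square differences from FAP were 0.107, 0.164, 0.174, 0.188 and 0.200, against a median of 1.43. PJA2, a ubiquitin ligase gene, was at 42.8 to 43.7 CPM in FAP vector libraries and 35.9 to 36.9 CPM in control vector libraries. SQLE, of cholesterol synthesis, was at 151 to 159 CPM in FAP vector libraries and 123 to 127 CPM in control vector libraries. Likeness here means tight groups with the FAP vector group higher: the log2 fold changes of the 5 were 0.15 to 0.47, none passed the test (smallest adjusted p = 0.236), and the measure was picked on the same libraries, so it is a description.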

How the data were processed

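Read counts per gene were deposited by the authors for 6 libraries of TC28a2 cells, as whole numbers per Entrez gene ID that are not normalized. HISAT2, featureCounts, Subread and the GRCh38 build are named per the submitters' processing notes. The sources used here give no versions, no strand setting and no treatment of multiple alignments or molecular identifiers, so amplification copies may be counted as reads. Symbols and positions came from the RefSeq gene table of GRCh38.p14 (27745 of 28395 IDs matched), and transcript lengths from the longest GENCODE transcript of each gene.

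The quasi-likelihood F test of edgeR 4.0.16 (R 4.3.3) was two-sided and compared FAP vector minus control vector without covariates, after TMM scaling. Genes entered through filterByExpr with a count minimum of 10 and a total minimum of 15. A call needed an adjusted p (Benjamini-Hochberg, 13373 genes) under 0.05. Standard errors are the size divided by the root of F, and 95% intervals use the moderated degrees of freedom. The common biological coefficient of variation was 11.8%. Alternatives were DESeq2 1.42.0, limma-voom (limma 3.58.1), other size factors and filters, thinning, a replicate block and each library left out.

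Same-numbered samples did not deviate together (correlations of -0.0133, 0.0388 and -0.000931), so replicate numbers were not used to pair. All 8 members are named, and in each list the called genes or else the 2 with the smallest p. The members and lists were chosen with earlier results of these data known. The fits were also run on simulated counts, with the same dispersion for all genes and no library that stood apart. The real libraries differ in this, and nothing is concluded here from that run.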

Additional observations from a re-analysis of the deposited data

How the results depend on the processing

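FAP kept its direction and its call under all 15 alternatives, with log2 fold changes of 8.46 to 9.86. None of the other 7 genes passed under any. DPP4 could not be fitted in 4 alternatives, where it fell under the filter (at least 10 CPM, thinning, without FAP vector replicate 2, without control vector replicate 3), and DESeq2 gave it no adjusted p. Values changed sign for DPP4 with limma-voom (-0.56), for DPP8 with thinned counts (-0.0101), and with a library left out for DPP7 (-0.0049 to 0.26), DPP8 (-0.084 to 0.0894), DPP9 (-0.0486 to 0.106) and PRCP (-0.17 to 0.10). Of the 55 tested list genes, 21 were run one by one, IFIH1 added after seeing the data. Of these 21, AGT reversed with thinned counts (-0.14) and with a library left out (-0.28 to 0.44), IFIH1 likewise (-0.0286, and -0.0464 to 0.15), and CTSZ with a library left out (-0.14 to 1.90). PECAM1, also added, kept its sign (1.496 to 2.28). The cause was not tested. The number of genes called, 30 in the main analysis, was 19 with library totals (13 higher, 6 lower, against 13 and 17), 152 with no filter, 87 with DESeq2, 19 with thinned counts, 8 at an adjusted p under 0.01, and 3 to 248 with a library left out: 38, 6 and 248 without FAP vector replicates 1, 2 and 3, and 4, 7 and 3 without control vector replicates 1, 2 and 3. Of the list genes, 0 were called with library totals, 3 with no filter, and 0 to 3 with a library left out, against 1. With the replicate number as a block, 44 genes were called, and FAP, PREPL and DPP4 had log2 fold changes of 8.86, -0.37 and 0.22. The block changed no call of the 8 genes. DPP4 had 0 to 27 counts in a library, and the part of depth in its wide interval was not tested.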
